A study of Mus musculus with 6 samples.

Results

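The E2F and DP transcription factors are the 10 mouse genes E2f1 to E2f8, Tfdp1 and Tfdp2. They are 10 of the 19057 genes named on the array and were taken as all probes whose annotated gene symbol, or current symbol through its Entrez identifier, is one of these names, which gave 27 of the 45281 probes of the Illumina BeadChip. Of the 10 genes, 9 had a probe above background on at least 3 of the 6 arrays and were tested among 9561 genes. E2f8 was not tested. The arrays measured total RNA of bone marrow cells sorted by FACS from female C57BL/6 mice aged 7 weeks, with no genetic change or treatment named in the labels. Plasmacytoid dendritic cells positive for CCR9 (CCR9+ pDCs), known as makers of type I interferon, gave 3 arrays. Pre-dendritic cells labelled as pDC-like and lacking the chemokine receptor CCR9, called precursors here, gave the other 3. The series design describes independent isolations, but whether animals were pooled is not stated in the labels, so p-values measure the spread between these isolations.

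E2F proteins bind DNA near the start sites of genes for S phase entry, DNA replication and nucleotide supply, in most cases as a dimer with a DP protein encoded by Tfdp1 or Tfdp2. Pocket proteins (the retinoblastoma protein and its relatives) hold E2Fs in a repressed state until cyclin-dependent kinases phosphorylate them, and the freed activators E2F1, E2F2 and E2F3 then switch on their targets. E2F4 and E2F5 act mostly as repressors with pocket proteins in resting cells, E2F6 represses without pocket proteins, and the atypical E2F7 and E2F8 repress without a DP partner.

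Precursor arrays had higher signals of the activators E2f1 and E2f3, of the pocket-independent repressor E2f6 and of both DP genes, while the signal of the repressor E2f4 was lower. E2f1 changed most among the members that passed the test, at 3.03-fold, and Tfdp1 rose 2.01-fold. In all, 5 of the 9 tested members rose and 1 fell at an adjusted p below 0.05, against 35.8% of all tested genes called in either direction, 18.2% higher and 17.6% lower in precursors. Every precursor array lay above every pDC array for 6 members (26.7% of all genes) and below for 1 (24.2%). The members' median log2 fold change (precursor mean minus pDC mean) was 0.62, against 0.02 over all genes. With arrays scaled to a common median instead, the median over all genes was 0.19, the calls over all genes split into 68.3% higher instead of 50.8%, and the E2f4 call was lost. The calls of E2f3 and Tfdp2 depended on single arrays, and so did that of E2f4 in a fit of all named probes, as given below.

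**Figure D1:**
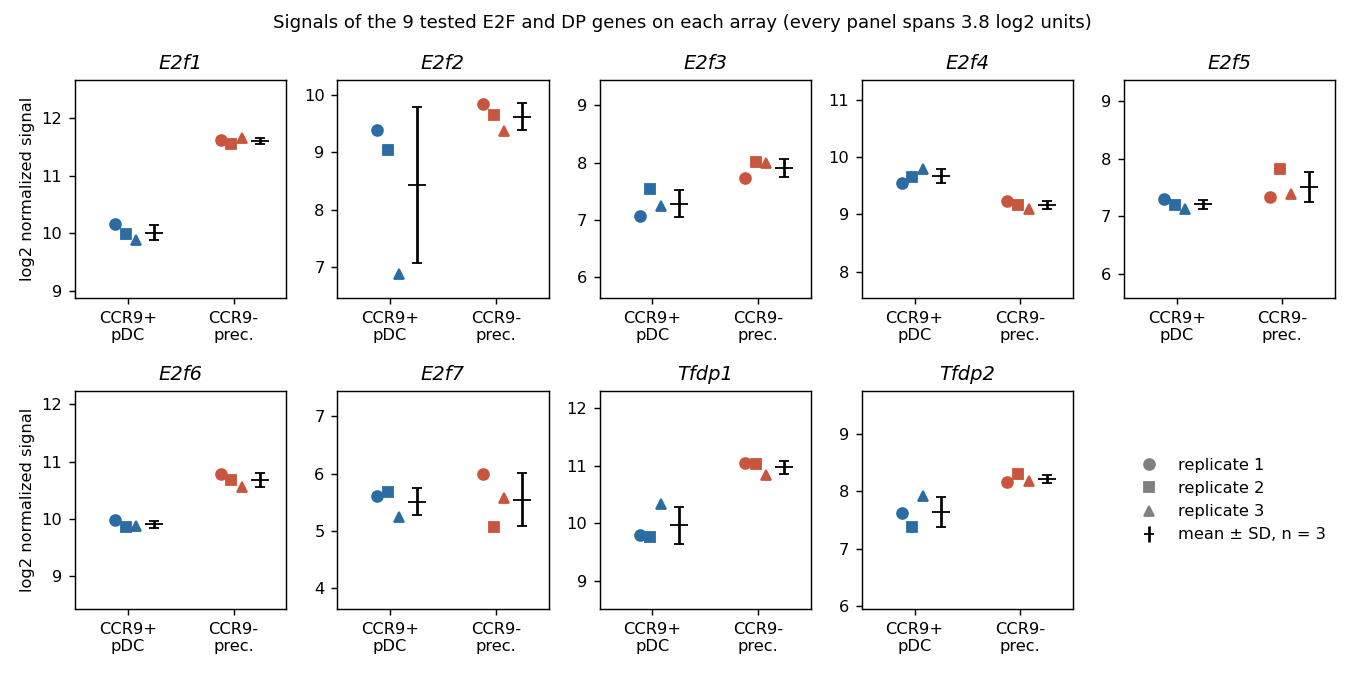
Log2 normalized signal of each of the 9 tested members (vertical axis) on the 3 CCR9+ pDC arrays (blue) and the 3 CCR9- precursor arrays (red), with symbols for the replicate number and bars for mean ± SD. The groups do not overlap for E2f1, E2f3, E2f4, E2f5, E2f6, Tfdp1 and Tfdp2, and CCR9+ pDC replicate 3 lies far below the other arrays for E2f2.

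Between 15254 and 16905 probes were above background on an array (detection p-value below 0.05), fewest on CCR9+ pDC replicate 3, which also correlated least with its group (mean r over genes 0.976, against 0.983 to 0.993 for the other arrays). Of 10 tested pDC markers 4 fell (Klk1, Irf7, Pacsin1 and Siglech) and 1 rose (Ly6d). Over all tested genes 17.6% were called lower and 18.2% higher. The Siglech call was lost under median scaling (limma adjusted p = 0.174) and without any single array other than CCR9+ pDC replicate 3 (0.0562 to 0.0721). The other 5 (Bst2, Spib, Cox6a2, Tcf4 and Irf8) did not pass. The mean log2 signal of the 10 markers was 12.77 to 12.85 on pDC arrays and 11.91 to 12.03 on precursor arrays. Their summed deposited signals overlapped, at 97317 to 117843 on pDC arrays and 94838 to 97994 on precursor arrays. Klk1 had the largest log2 fold change of the 10, -4.59, and their median was -0.41. Ccr9 itself had no signal above background, so the sorting marker checks nothing here. Markers of other cell types were mostly lower in precursors, and the counts below stand beside the same 17.6% of all tested genes called lower. All 10 tested monocyte and macrophage markers fell, with summed deposited signals of 28647 to 41162 on pDC arrays and 4053 to 4861 on precursor arrays. Among them C1qa was above background on no precursor array. It passed the filter through the pDC arrays alone, so its direction adds nothing to that count. All 8 tested neutrophil markers fell (83655 to 96726 against 49272 to 59994), as did all 5 tested basophil and mast cell markers (2401 to 4166 against 1103 to 1546). For the mast cell and basophil gene Mcpt8 the groups overlapped (limma adjusted p = 0.0418). It was above background on 2 pDC arrays and 1 precursor array. The alternatives were followed for up to 4 called markers per list, and Mcpt8 was not among them. Of 6 tested erythroid markers 3 fell and 1, Tfrc, rose (37697 to 64988 against 43828 to 57861). In the B lineage 1 of 5 fell (2459 to 2628 against 1812 to 2073) and among T and NK cell markers 1 of 3 (2301 to 3219 against 1833 to 2715). Single arrays decided the calls of the erythroid genes Ermap and Alas2 and of the T cell gene Cd3e: the Ermap call was lost without replicate 2 or 3 of either group (adjusted p up to 0.0800), the Alas2 call without CCR9+ pDC replicate 1 or 2 or precursor replicate 2 or 3 (up to 0.0883) and under median scaling (0.176), and the Cd3e call without precursor replicate 2 (0.0779) or 3 (0.0621) and with the mean of its probes (0.159). Cd8a, Ncr1, Klrb1c and the erythroid factor gene Gata1 were above background on no array. The part of these cells in the results below was not tested, and in sorted bulk samples fewer cells of a type and less RNA per cell cannot be told apart.

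E2f1, the activator whose product drives S phase entry and, at high levels, cell death, had log2 normalized signals of 10.15, 9.98 and 9.89 on the CCR9+ pDC arrays and 11.62, 11.55 and 11.65 on the precursor arrays. All precursor arrays lay above all pDC arrays, and the gap between the groups was several times the spread within either. E2f1 rose 3.03-fold, with a 95% interval of the log2 fold change from 1.35 to 1.85 (SE 0.10; limma adjusted p = 6.44e-05). E2f1 has a single probe on the array. It was called under all 15 alternatives, with log2 fold changes from 1.41 to 1.85.

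E2f2, the activator that also restrains proliferation of T cells in mice, did not pass the test. Its signals were 9.39, 9.04 and 6.89 on the pDC arrays and 9.84, 9.66 and 9.37 on the precursor arrays. The groups overlapped, since precursor replicate 3 lay just below CCR9+ pDC replicate 1, and 1 pDC array stood far below the rest. The log2 difference was 1.18 with a 95% interval from -0.30 to 2.67 (limma adjusted p = 0.190), and it was 0.41 without CCR9+ pDC replicate 3 (adjusted p = 0.123). The other E2f2 probe above background was lowest on the same array, although its groups did not overlap: its deposited signals were 544, 522 and 237 on the pDC arrays and 809, 808 and 693 on the precursor arrays (limma adjusted p over probes = 0.156). The range of E2f2 over the pDC arrays, 2.50 log2 units, was equalled or exceeded by 21 of the 9561 tested genes with E2f2 included, and CCR9+ pDC replicate 3 was the lowest pDC array in 17 of these. The remaining E2f2 probe was above background on no array.

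E2f3, the third activator, had signals of 7.07, 7.54 and 7.24 on pDC arrays and 7.73, 8.01 and 7.98 on precursor arrays. The groups did not overlap, and CCR9+ pDC replicate 2 came closest to the precursor arrays. The rise of 0.62 ± 0.15 (log2, SE; limma adjusted p = 0.0194) was lost without CCR9+ pDC replicate 1 (adjusted p = 0.0503) and without precursor replicate 2 (0.0729) or 3 (0.0681). With no background step its log2 fold change was 0.37, and in the authors' processed table it was 0.35, both still called. The other E2f3 probe was above background on 2 precursor arrays and on no pDC array, and was left out as dim.

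E2f4 was the only tested member with a lower signal in precursors that passed. It encodes the pocket-bound repressor that is abundant in resting cells. Its signals were 9.55, 9.65 and 9.79 on pDC arrays and 9.23, 9.17 and 9.10 on precursor arrays. Every precursor array lay below every pDC array after quantile normalization. The deposited signals before normalization, 822, 895 and 851 against 824, 731 and 731, overlapped between CCR9+ pDC replicate 1 and precursor replicate 1. E2f4 fell by 0.50 ± 0.10 on the log2 scale (SE; limma adjusted p = 0.00955), a 1.41-fold change. Under median scaling the log2 fold change was -0.24 and was not called (adjusted p = 0.244). Relative to the shifted median of all genes there it was -0.43, against -0.52 in the reported fit. E2f4 is measured by a single probe. Its call held in the fit over genes when any single array was left out. In a fit of all named probes it was lost without precursor replicate 2 or 3.

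The ratio of 2 members within an array does not change when all signals of that array are multiplied by a constant. Background correction and quantile normalization are not such a step, so the ratios given here still depend on them. On the normalized scale the log2 ratio of E2f1 to E2f4 was higher by 2.10 in precursors, with SDs of 0.25 over the pDC arrays and 0.10 over the precursor arrays. That of Tfdp1 to E2f4 was higher by 1.51, that of E2f6 to E2f4 by 1.27 and that of E2f1 to E2f6 by 0.83. These ratios were chosen with the values of the members known, and for the ratios to E2f4 the full separation of the groups follows from that of the members, so they are given as a description with no test.

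E2f5, the second pocket-bound repressor, had signals of 7.29, 7.19 and 7.13 on pDC arrays and 7.33, 7.82 and 7.38 on precursor arrays. The groups did not overlap, but CCR9+ pDC replicate 1 and precursor replicate 1 nearly met, and precursor replicate 2 stood above the other arrays. The log2 difference of 0.30 had a 95% interval from -0.05 to 0.66 and did not pass (limma adjusted p = 0.163). The other E2f5 probe was above background on no array.

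E2f6, whose product lacks the parts that bind pocket proteins and activate transcription, had signals of 9.98, 9.86 and 9.87 on pDC arrays and 10.79, 10.68 and 10.55 on precursor arrays. The groups did not overlap, and the arrays of each group lay close together. E2f6 rose by 0.77 ± 0.10 (log2, SE), a 1.70-fold change (limma adjusted p = 0.00137), and was called under all 15 alternatives. Of its 6 probes, 5 were above background on at least 3 arrays and all 5 were called higher, with log2 fold changes of 0.70, 0.71, 0.77, 0.79 and 1.10 in a fit of all named probes. In that fit 31.0% of 14282 probes were called in either direction, and 10 of the 17 tested member probes were, 9 of them higher (16.5% of all probes) and 1 lower (14.5%). The E2f6 probe at 0.70 was above background on no pDC array, so its fitted change rests partly on signals at background. That probe passed the filter through the precursor arrays alone, so its direction adds nothing to these counts.

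**Figure D2:**
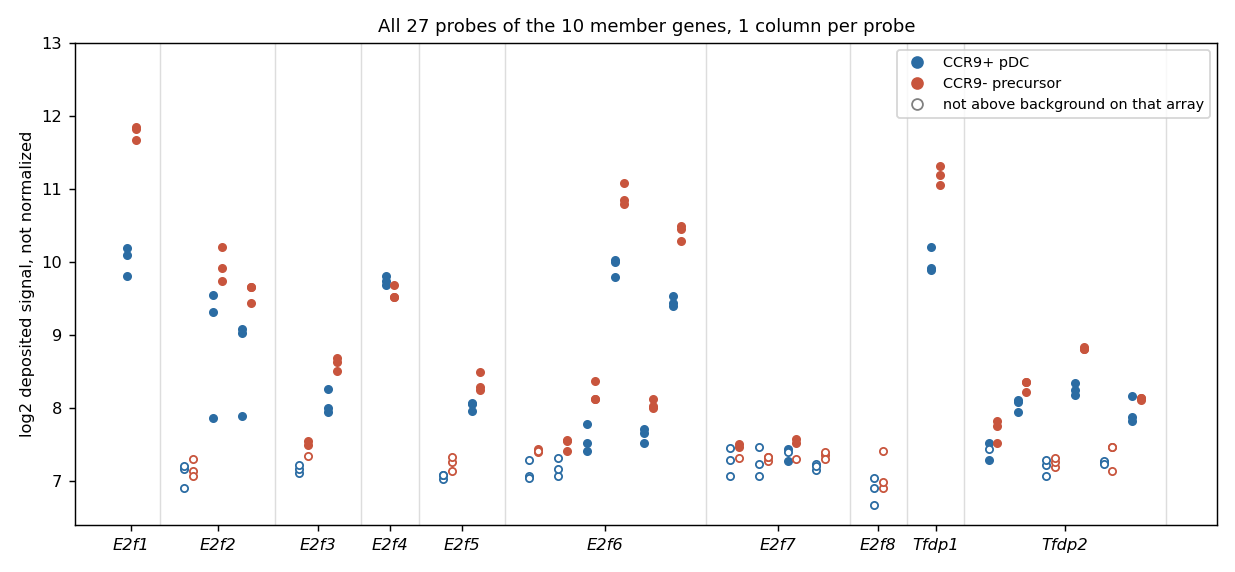
Log2 of the deposited, not normalized signal (vertical axis) of all 27 member probes, 1 column per probe grouped by gene, on pDC arrays (blue) and precursor arrays (red), with open circles where the probe was not above background on that array. The 5 tested E2f6 probes show the same direction at different brightness, the E2f7 and E2f8 probes lie at or near background, and the brightness of different probes cannot be compared.

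E2F6 works inside a non-canonical Polycomb complex, PRC1.6, that keeps germline genes silent in body cells. Of 8 tested genes of this complex, 2 rose, none fell and 6 did not pass, beside 18.2% of all tested genes called higher, so the count does not set the complex apart. It also depended on the setting: 4 passed under median scaling, 1 when the prior was robust with an intensity trend, 0 without precursor replicate 2, and 1 without CCR9+ pDC replicate 2 or precursor replicate 1 or 3. Cbx3, a heterochromatin protein gene, rose 6.78-fold (limma adjusted p = 0.0165) from signals of 7.69, 7.05 and 4.98 on pDC arrays to 9.49, 9.34 and 9.18. CCR9+ pDC replicate 3 was again the lowest and had no Cbx3 signal above background at this probe. Leaving out precursor replicate 1 (adjusted p = 0.0566) or 2 (0.0540) ended the Cbx3 call, as did a robust prior with an intensity trend (0.0523). The log2 fold change of Cbx3 was 2.76, but 1.72 with no background step and 1.64 in the authors' processed table. Yaf2, which links the complex to its ubiquitin ligase, rose 1.35-fold (adjusted p = 0.0142), and its call was lost without CCR9+ pDC replicate 2 (0.0514) and without precursor replicate 2 (0.0507) or 3 (0.0549). Its log2 fold change was 0.43, and 0.23 and 0.20 under the same 2 alternatives. Among germline genes that E2F6 represses, Stag3, a cohesin subunit of meiosis, rose 3.76-fold, from 8.05, 7.88 and 8.17 on pDC arrays to 9.83, 9.96 and 10.04 on precursor arrays (limma adjusted p = 4.46e-05). Tuba3a, an alpha-tubulin gene with a near-identical copy, differed by -0.36 (adjusted p = 0.308), and the probes of Smc1b, Slc25a31 and Mael were above background on no array.

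E2f7 and E2f8, the atypical repressors, could hardly be measured. Of the 4 E2f7 probes, 1 reached 3 arrays. Its signals were 5.61, 5.68 and 5.24 on pDC arrays and 6.00, 5.07 and 5.57 on precursor arrays, and it was above background on 2 arrays of each group. The groups overlapped, and the log2 difference of 0.035 had a 95% interval from -0.56 to 0.63 (limma adjusted p = 0.927). The single E2f8 probe was above background on no array (lowest detection p-value 0.122), so no level or fold is given.

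Tfdp1, which encodes the main DP partner, had signals of 9.80, 9.76 and 10.34 on pDC arrays and 11.05, 11.04 and 10.85 on precursor arrays. The groups did not overlap. CCR9+ pDC replicate 3 was the pDC array nearest to the precursors. Tfdp1 rose by 1.01 ± 0.17 (log2, SE; limma adjusted p = 0.00461) and was called under all 15 alternatives, with log2 fold changes from 0.86 to 1.26.

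Tfdp2, the second DP gene, had signals of 7.62, 7.38 and 7.91 on pDC arrays and 8.16, 8.30 and 8.18 on precursor arrays at its brightest probe. The groups did not overlap, and the rise was 0.58 ± 0.15 (log2, SE; limma adjusted p = 0.0228). Leaving out any 1 array other than CCR9+ pDC replicate 3 ended the call (adjusted p = 0.0582 and 0.0555 without CCR9+ pDC replicates 1 and 2, and 0.0607, 0.0824 and 0.0618 without precursor replicates 1, 2 and 3). The other 3 tested Tfdp2 probes gave log2 differences of 0.12, 0.21 and 0.60 and were not called (adjusted p over probes 0.626, 0.212 and 0.0786). Whether the probes differ from each other was not tested. The mean of the probes gave 0.38, omitting the background step gave 0.37, and the authors' processed table gave 0.36, all 3 still called.

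**Figure D3:**
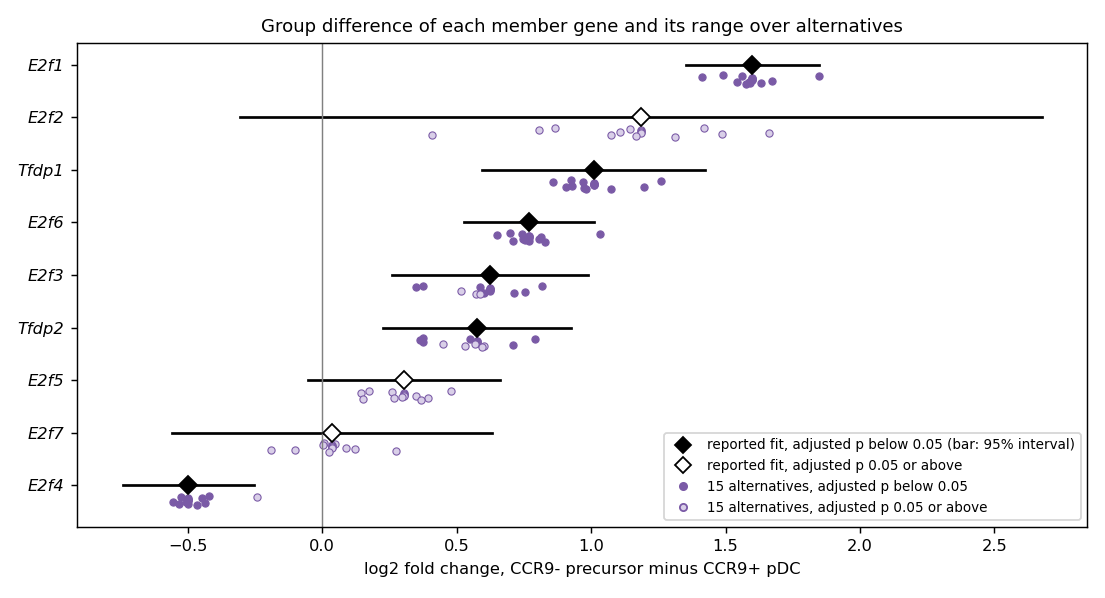
Log2 fold change (horizontal axis, precursor minus pDC) of the 9 tested members, as diamonds with 95% intervals in the reported fit and as circles under the processing alternatives, filled where the adjusted p was below 0.05. E2f1, E2f6 and Tfdp1 stay called throughout, E2f4 loses its call under median scaling at -0.24, E2f3 and Tfdp2 lose theirs without single arrays, and E2f7 changes sign without CCR9+ pDC replicate 3 or precursor replicate 1.

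The promoters of several E2F genes are known targets of E2Fs themselves, so promoter windows from RefSeq (build GRCm38.p6, 250 bases before to 50 after a start) were searched. The core of the E2F site, taken as TTCCCGC or its variant TTCGCGC, and as TTGGCGC or its variant TTGCCGC, was looked for on both strands. The patterns differ from each other, so a stretch counts once per strand, and matches on opposite strands may overlap. They occurred in 3145 of 32851 windows (9.57%), in 19 of 28 windows of the E2F target genes described below, and in 6 of 12 windows of the members, which belong to 5 of the 8 member genes with a window (2 overlapping Tfdp1 windows share their match). Among the 29678 windows within the range of GC content of the members (39.3% to 80.7%) the share was 10.4%. That range holds most windows, and their median GC content was 54.0%, against 67.3% for the members. The share of 10.4% is therefore not matched for GC content. A match describes these letters and shows no binding. The E2f3 and Tfdp1 windows are shown because both genes rose and hold a match, and E2f7 because its window holds the most matches of any member, with a signal near background. Capitals mark the matches, on either strand. The E2f3 window shown lies at chr13:29986014-29986313 (minus strand), that of Tfdp1 at chr8:13338501-13338800 (plus strand) and that of E2f7 at chr10:110745189-110745488 (plus strand).
E2f3: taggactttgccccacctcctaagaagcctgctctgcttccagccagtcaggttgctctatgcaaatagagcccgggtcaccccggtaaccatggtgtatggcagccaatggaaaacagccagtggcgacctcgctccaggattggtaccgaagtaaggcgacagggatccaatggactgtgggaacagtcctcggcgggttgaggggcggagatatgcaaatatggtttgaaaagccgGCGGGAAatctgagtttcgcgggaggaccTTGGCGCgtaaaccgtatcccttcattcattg
Tfdp1: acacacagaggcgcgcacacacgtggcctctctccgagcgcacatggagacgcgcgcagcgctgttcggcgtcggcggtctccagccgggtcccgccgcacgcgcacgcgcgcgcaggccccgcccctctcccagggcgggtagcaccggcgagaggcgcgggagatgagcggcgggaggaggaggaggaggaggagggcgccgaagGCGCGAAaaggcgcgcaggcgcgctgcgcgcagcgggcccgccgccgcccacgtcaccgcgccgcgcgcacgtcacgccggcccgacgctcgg
E2f7: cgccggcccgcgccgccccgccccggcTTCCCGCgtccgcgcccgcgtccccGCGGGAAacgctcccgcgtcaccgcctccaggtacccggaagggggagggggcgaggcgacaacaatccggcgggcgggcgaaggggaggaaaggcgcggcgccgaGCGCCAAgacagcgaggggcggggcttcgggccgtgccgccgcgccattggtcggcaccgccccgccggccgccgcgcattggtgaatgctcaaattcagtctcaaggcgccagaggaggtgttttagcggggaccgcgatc
In E2f3 the first match, read on the opposite strand, lies 11 to 5 bases before the start, and the other lies 19 to 25 bases after it. In Tfdp1 the match lies 43 to 37 bases before the start, and in E2f7 the 3 matches begin 223, 198 and 92 bases before it. E2f2 and E2f8 had 1 match each in a window, 41 to 47 bases after and 111 to 105 bases before the start. The windows of E2f6 and Tfdp2 held none, and neither did the other window of E2f2 or that of E2f3. The RefSeq window listed for E2f1 lies inside the annotated gene and held none. Windows of E2f4 and E2f5 were not analysed here.

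Pocket proteins bind E2Fs and are their first layer of control. Rbl1, which encodes p107 and is a known E2F target, rose 2.23-fold, from 9.04, 8.90 and 8.75 on pDC arrays to 9.95, 10.13 and 10.09 on precursor arrays (limma adjusted p = 0.000343). Rb1, the retinoblastoma gene, had 11.03 ± 0.10 and 10.84 ± 0.08 (log2, SD, n = 3), a log2 difference of -0.18 that did not pass (adjusted p = 0.206) and that was 0.058 under median scaling. With the authors' processed values Rb1 passed at an adjusted p of 0.0488. Rbl2, which encodes p130, was above background on no array.

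Kinases and cyclins that phosphorylate pocket proteins were mostly higher in precursors. Of 7 tested, 5 rose and 2 did not pass, beside 18.2% of all genes called higher. Ccne2, a cyclin E gene, rose 4.57-fold, the D cyclin genes Ccnd3 and Ccnd2 rose 3.49- and 2.81-fold, Cdk4 rose 2.62-fold and Cdk2 2.59-fold (limma adjusted p from 0.000108 to 0.0203). CCR9+ pDC replicate 3 was the lowest array for Ccnd2, at 6.91. Leaving out precursor replicate 1 (0.0719) or 2 (0.0627) ended the Ccnd2 call. Without background correction the log2 fold change of Ccne2 was 1.19 instead of 2.19, and the mean of its probes gave 1.05 instead of 1.80 for Ccnd3, both still called. Ccnd1 had signals of 14.02 ± 0.07 in pDCs and 14.06 ± 0.14 in precursors (log2, SD, n = 3; adjusted p = 0.792). Cdk6 differed by -0.015 (adjusted p = 0.976) and was above background on 1 pDC array and 2 precursor arrays, and Ccne1 on 2 arrays in all, which left it untested. Of 6 tested inhibitors of these kinases, 1 rose and 1 fell, beside 18.2% of all genes called higher and 17.6% lower. Cdkn2c, which encodes p18, rose 2.03-fold (adjusted p = 0.00186), and Cdkn1c, which encodes p57, was at least 1.58-fold lower in precursors, where it was above background on no array (adjusted p = 0.00395; measured means 6.13 and 5.06, log2). That bound holds for the background-corrected signals: the log2 difference of Cdkn1c was -0.37 with no background step and -0.39 in the authors' processed table, both still called. Cdkn1c passed the filter through the pDC arrays alone, so its direction adds nothing to the count of inhibitors. Cdkn2d, Cdkn1a, Cdkn1b and Cdkn2a differed by 0.54, 0.26, 0.063 and -0.23 on the log2 scale and did not pass (adjusted p = 0.0527, 0.303, 0.776 and 0.464). Cdkn2d passed under 5 of 15 alternatives (adjusted p from 0.0203), and Cdkn2b was not tested.

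The MuvB core joins E2F4, a DP protein and p130 in the DREAM repressor complex of resting cells, and joins B-MYB and FOXM1 in dividing cells. Of 6 tested genes, 4 rose, beside 18.2% of all tested genes called higher. Mybl2, which encodes B-MYB, rose 5.23-fold, from 7.81, 7.70 and 7.46 to 10.16, 10.07 and 9.90 (limma adjusted p = 2.93e-05), and Foxm1 rose 3.65-fold (4.71e-05). The core genes Lin54 and Rbbp4 rose 2.05- and 1.74-fold, whereas Lin37 differed by -0.075 (adjusted p = 0.555). Dyrk1a, the kinase that assembles DREAM, differed by 0.13 (adjusted p = 0.496) and passed with the mean of its probes (0.0374). Lin9 and Lin52 were above background on no array. All 3 tested genes for E2F protein turnover rose, against the same 18.2%. Ccnf, a ubiquitin ligase subunit, rose 2.06-fold, the Cdh1 gene Fzr1 1.52-fold and Skp2 1.59-fold. Without background correction the log2 fold change was 0.58 instead of 1.04 for Ccnf and 0.45 instead of 0.80 for Rbbp4, both still called. The Skp2 call (adjusted p = 0.0451) was lost under 9 of 15 alternatives, among them the fit with no background step (log2 fold change 0.23 instead of 0.67), all 3 fits without a precursor array (0.0782, 0.134 and 0.118 without replicates 1, 2 and 3) and the fit without CCR9+ pDC replicate 2 (0.0955). Ccna2 was above background on no array.

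Known E2F target genes of S phase were all higher in precursors where tested. Of 30 listed genes 23 were tested, and all 23 rose, with a median log2 fold change of 1.91 (3.75-fold) and a range from 1.10 to 3.01, against a background of 18.2% of genes called higher and a median of 0.02. On every precursor array the mean log2 signal of the 23 genes, 9.99 to 10.12, lay above that of every pDC array, 7.98 to 8.11. Gins1, part of the replicative helicase, rose 8.07-fold, Mcm10 rose 7.26-fold, the helicase loader gene Cdc6 5.92-fold and the polymerase gene Pole 5.72-fold. The smallest rises, named after their values were seen, were those of the sliding clamp gene Pcna (2.14-fold) and the nucleoside kinase gene Dck (2.39-fold). Chek1, a checkpoint kinase gene, was at least 2.60-fold higher, since no pDC array had its probe above background. Chek1 is counted among the 23 but passed the filter through the precursor arrays alone, so its direction adds nothing to that count. All 23 of 23 rose under 14 of the 15 alternatives, and 24 of 28 did with no filter on dim probes. Without background correction the log2 fold changes of Gins1 and Pole were 1.84 and 1.63, against 3.01 and 2.51. Orc1, Pola1, Prim1, Slbp and Brca1 were above background on no array. Genes of cell division were already known from these arrays to be higher in precursors, so this list adds no independent support. Markers of macrophages, neutrophils and basophils moved the opposite way on these arrays, as given above.

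**Figure D4:**
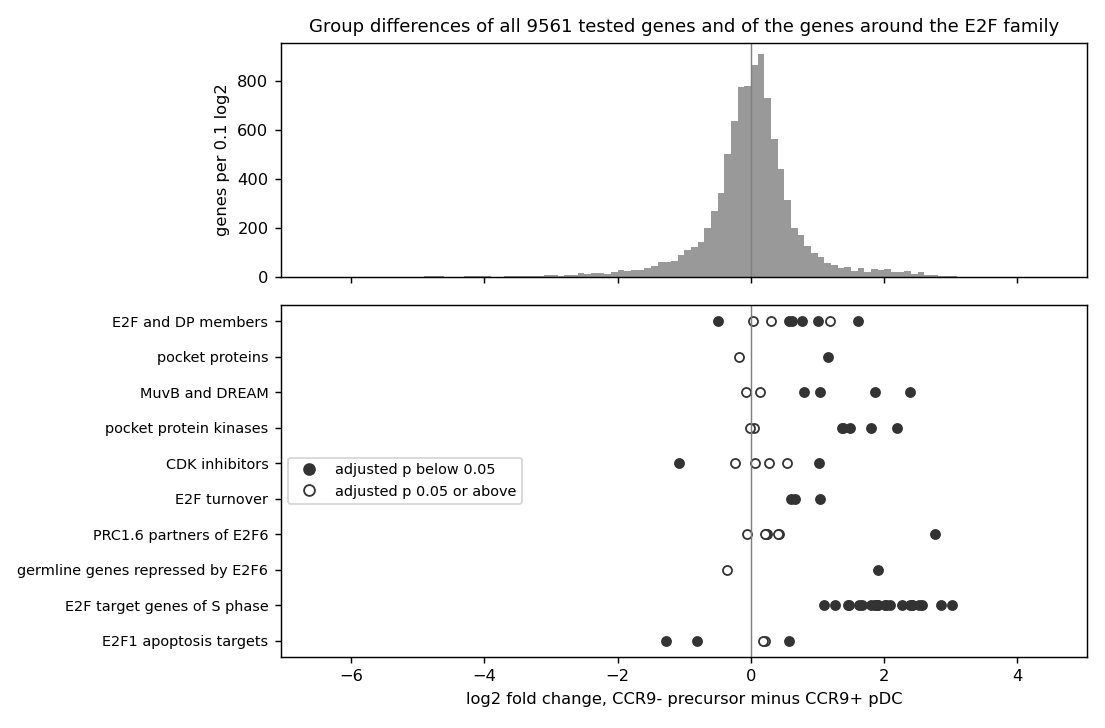
Log2 fold changes (horizontal axis, precursor minus pDC) of all 9561 tested genes as a histogram (upper panel) and of the tested genes of each list around the E2F family as points (lower panel), filled where the adjusted p was below 0.05. The 23 tested S phase targets lie between 1.10 and 3.01, to the right of all members except E2f1 and E2f2.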

How the data were processed

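The authors deposited a table of Illumina BeadChip signal intensities, not normalized and on a linear scale, and beside each intensity a detection p-value, per the file headers. Their processed table holds linear intensity values with no normalization named in the labels or header. It served as an alternative only. BeadStudio and lumi are named, without versions, in the submitters' processing notes. Each array's column was matched to its sample by title.

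Signals were background-corrected by normexp from the detection p-values with an offset of 16, quantile-normalized and log2-transformed with limma 3.58.1 in R 4.3.3, as its neqc function does for tables without control probes. A probe was kept where 3 or more of the 6 arrays had a detection p-value below 0.05 (16857 of 45281). Of all probes 34885 have 1 gene symbol in the platform annotation, 18 several and 10378 none, and 34807 matched a current RefSeq gene through Entrez identifiers. Where a gene had several kept probes, the brightest on average was used, which left 9561 genes. CCR9- precursors were compared with CCR9+ pDCs by lmFit and eBayes, with group as the only term and Benjamini-Hochberg adjustment over all genes; adjusted p below 0.05 is a call, and log2 fold changes are precursor minus pDC. Member probes were fitted among all 14282 kept named probes. An "at least" fold takes, for the group not above background, the higher of the probe's own value and the lowest value above background per array. The fit was also run on simulated normal data with its own fitted variances. These hold no outlying array and no pairing, so that run cannot test the fit's assumptions. The number of arrays limits the precision.

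The members, gene lists and tests were chosen with earlier results of these data known. The text names all members and their probes. It names every gene of the lists of 8 or fewer regulators (pocket proteins, MuvB and DREAM, kinases, inhibitors, turnover). It also names up to 4 called genes with the largest change of each longer list, and the 3 genes nearest to E2f1 in pattern. Other names complete a short list, are listed genes above background on no array, or were chosen after their values were seen. Not all of these are marked where they appear. Marker lists are given mainly by counts and summed deposited signals. Alternatives changed the background correction, normalization, value table, filter, probe rule, prior and replicate block, or left out each array. No slide block was run, because the table names no slides.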

Additional observations from a re-analysis of the deposited data

How the results depend on the processing

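The count of called members stayed at 6 of 9 or fell to as low as 4 when single arrays were left out (range 4 to 6), and it was 5 under median scaling. Calls over all genes ranged from 2442 to 3802 over 15 alternatives, with 2442 to 3551 when single arrays were left out. The count of member probes ranged from 7 to 10, and that of S phase targets from 23 to 24. Whether the replicate numbers pair the arrays was not tested. The deviations of same-numbered arrays correlated at 0.350, 0.044 and 0.242, and those of differently numbered arrays at -0.298 to 0.063. CCR9+ pDC replicates 1 and 3 correlated best with the precursor array of the same number. CCR9+ pDC replicate 2 correlated best with precursor replicate 1 (0.063). With the replicate block the counts were 6 members, 3361 genes, 9 member probes and 23 targets, and among the named genes only the Skp2 call was lost (adjusted p = 0.0730). Signs turned only for uncalled genes: Rb1 was 0.058 under median scaling; Cdk6 was 0.042 under median scaling, 0.032 with cyclic loess, and -0.24 to 0.26 when single arrays were left out; Ccnd1 was -0.056 with cyclic loess, -0.19 with the authors' processed values and -0.015 to 0.12 when single arrays were left out. Over the same leave-outs E2f7 ranged from -0.19 to 0.27 and Cdkn1b from -0.056 to 0.15, with negative values without CCR9+ pDC replicate 3 or precursor replicate 1. The causes were not tested. E2f7 and E2f8 lie at or near background, which limits what these arrays can show for them.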

Other observations

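Genes through which E2F1 promotes cell death did not move together. Of 5 tested, 1 rose, 2 fell and 2 did not pass, against 18.2% of all genes called higher and 17.6% lower. Apaf1, the scaffold of the apoptosome, rose 1.48-fold, from 11.26, 11.38 and 11.50 on CCR9+ pDC arrays to 11.97, 11.94 and 11.92 on precursor arrays (limma adjusted p = 0.00487). Bcl2l11, which encodes the killer protein BIM, fell by 0.80 on the log2 scale (adjusted p = 0.000994). Bbc3, which encodes PUMA, fell by 1.28 (adjusted p = 0.0160), a call lost without CCR9+ pDC replicate 2 (0.0550) and without precursor replicate 1 (0.0539) or 2 (0.0612), and its log2 fold change was -0.77 with the mean of its probes. Pmaip1 and Map3k5 differed by 0.22 and 0.19 (adjusted p = 0.797 and 0.534), and Trp73 was above background on no array.

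The tested genes whose mean-centred signals over the 6 arrays lay nearest to those of E2f1 were Dnmt1, the maintenance DNA methyltransferase gene, at a distance of 0.12 log2 units, Gcnt2 at 0.14 and Csrp2 at 0.19. Their log2 fold changes were 1.66, 1.65 and 1.51. Values close to that of E2f1 follow from this choice of genes.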
